A study of Saccharomyces cerevisiae with 7 samples.

Results

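The core histone genes of budding yeast were examined for readthrough of the poly(A) site in the sua7-1 mutant of TFIIB, the general transcription factor that joins the promoter-bound complex and RNA polymerase II. A gene was taken as a core histone gene where its standard name begins with HTA, HTB, HHT or HHF followed by a digit. The R64 annotation holds 8 such genes, and 6 of them are among the 337 genes of the deposited table: HTA2 (histone H2A), HTB1 and HTB2 (H2B), HHT1 and HHT2 (H3), and HHF2 (H4). HTA1 and HHF1 were not analysed here. GRO-seq, in which engaged polymerases extend their transcripts with BrUTP in a run-on reaction and the labelled RNA is purified and sequenced, was used by the authors on both strains. WT is BY4733, which carries his3Δ200, trp1Δ63, leu2Δ0, met15Δ0 and ura3Δ0, and the mutant derives from BY4733 and carries the sua7-1 allele, a glutamic acid to lysine change in TFIIB. The 3 sua7-1 libraries carry replicate numbers 2, 3 and 4, the 4 WT libraries numbers 1 to 4. The study's methods call the GRO-seq samples of both strains biological replicates, but give WT 1 replicate fewer than there are WT libraries and do not say which library is the additional one.

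The core histones form the protein octamer around which DNA is wrapped in the nucleosome, a pair each of H2A, H2B, H3 and H4. In budding yeast each histone is encoded by a pair of gene copies, and the genes lie in divergent pairs, H2A beside H2B and H3 beside H4, transcribed away from a shared promoter. Their transcription peaks in S phase, when new DNA has to be packaged. Unlike most metazoan replication-dependent histone mRNAs, which end in a stem-loop, yeast histone mRNAs are polyadenylated, so their transcription ends at a poly(A) site as that of other protein-coding genes does. At such a site the nascent transcript is cleaved by the 3' end processing complexes, and the exonuclease Rat1 degrades the RNA still attached to the polymerase. Polymerases that pass the site without stopping give run-on signal downstream. The cultures were grown to mid-logarithmic phase and are labelled with no cell cycle arrest, so each value comes from cells in all phases. Strong readthrough in few cells and weak readthrough in many cannot be told apart in such a culture.

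The readthrough index (RTI) was deposited for each gene and library. It is the number of reads 50 to 500 nt after the mRNA 3' end divided by the number in the mirror window before it, so that 0.1 stands for 1 downstream read per 10 upstream. The RTI is a ratio within a gene and a library. Its read numbers were not analysed here, so the depth behind a value was not worked out and values carry no interval for counting. Values were listed for 314 to 337 genes in each library but WT replicate 4, which has 38 genes and no core histone gene. The results for the core histone genes therefore rest on at most 3 sua7-1 and 3 WT libraries, while the results over all genes include WT replicate 4. Values are given in the order of replicates 2, 3 and 4 for sua7-1 and of replicates 1, 2 and 3 for WT. HHF2 has no value in sua7-1 replicate 2. The libraries of a strain were not alike over all genes. The median RTI was 0.0142 in WT replicate 1, 0.00349 in WT replicate 2 and 0.00459 in WT replicate 3, and for sua7-1 it was 0.0414, 0.0850 and 0.0680. All 6 core histone genes had their highest WT value in WT replicate 1, the WT library of those 3 with the highest median.

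The gene copies are alike within the coding region and unlike after it, which sets what the windows can measure. The last 60 coding bases are shown here for the H4, H3 and H2B copies to show how far reads before the 3' end can be assigned to a copy. They are given 5′ to 3′ on the coding strand, stop codon included, with the bases that differ from the other copy in capitals.
HHF1: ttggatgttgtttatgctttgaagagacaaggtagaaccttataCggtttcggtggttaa
HHF2: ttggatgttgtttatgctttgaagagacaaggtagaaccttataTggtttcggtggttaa
HHT1: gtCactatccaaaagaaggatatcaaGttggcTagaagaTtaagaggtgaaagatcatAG
HHT2: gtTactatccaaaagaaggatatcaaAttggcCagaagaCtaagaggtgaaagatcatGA
HTB1: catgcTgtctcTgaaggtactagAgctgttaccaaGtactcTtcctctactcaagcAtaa
HTB2: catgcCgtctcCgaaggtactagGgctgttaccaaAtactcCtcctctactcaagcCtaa
The H4 copies differ at 1 of these 60 bases, and the H3 and H2B copies at 6 each. Over the whole coding sequence HHF1 and HHF2 were 97.4% identical, with 8 differences in 312 nt and a longest identical run of 80 nt. HTA1 and HTA2 were 93.7% identical, HHT1 and HHT2 93.2%, and HTB1 and HTB2 87.9%. Of the 30-base words in the last 300 coding bases, 57.9% occur once in the genome for HHF2, 80.1% for HHT1 and for HHT2, 97.8% for HTB1 and for HTB2, and 99.6% for HTA2. In the 450 bases after the stop codon every 30-base word was unique for all 6 genes, and no word was shared between copies. Reads that lie wholly within stretches shared at the coding ends of HHF2, HHT1 and HHT2 fit both copies. The 450 bases do not cover the whole downstream window, which is counted from the mRNA 3' end and so reaches further from the stop codon. The sources do not say how the authors' alignment treated such reads. Among the 331 genes found in the annotation, 58 had under 90% unique words at the coding end. Of those, 75.9% rose in the mutant by the test given with the changes below, and of the other 273 genes 75.5% did. A part of reads shared alike in both strains would largely cancel in the strain ratio, so these shares cannot show it. The median over genes of the mean sua7-1 RTI was 0.0511 for the 58 genes and 0.0696 for the other 273. The part of shared reads in the values of a single histone gene was not tested.

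The stretches after the stop codon were set side by side because termination reads signals there. In yeast, TATATA is a common form of the efficiency element of poly(A) sites and AATAAA a common form of the positioning element. Each stretch below holds the first TATATA on the coding strand within 300 bases of the stop codon, in capitals, for the 5 genes with one, and for HTA2 the first AATAAA.
HHF2: tatttcatgtacTATATAtattaaaaataa
HHT1: tcatgagtcagtTATATAatcgatatatag
HHT2: acatgaggagggTATATAtgctgtaattta
HTB1: tatttatatgggTATATAaaaattaaagta
HTB2: agtggcatttttTATATAttgtaacattag
HTA2: agtattactattAATAAAgaaaataaaaaa
The first TATATA starts 47 bases after the stop codon in HTB1, 57 in HTB2, 123 in HHT2, 133 in HHF2 and 290 in HHT1. With overlapping matches counted, HTB2 has 4, HHF2 has 2, and the other 3 genes have 1 each. The stretch shown for HHT1 runs past the 300 bases and holds a further TATATA there, which is not marked or counted. HTA2 has none, but 2 matches to AATAAA. HTB2 has no AATAAA. Of the 331 genes, 64.7% have a TATATA and 46.2% an AATAAA in the same window. A match of these letters is a description of the window and not a mapped site.

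The positions of the 6 genes differ in what follows them. HTA2 lies on chromosome II of R64 from 235394 to 235792 on the minus strand, and HTB2 at 236492 to 236887 on the plus strand, with 699 bases between their start codons. HHT2 (chromosome XIV, 575640 to 576050, minus strand) and HHF2 (576727 to 577038, plus strand) have 676 bases between theirs. HHT1 lies on chromosome II from 256331 to 256741 on the plus strand and HTB1 on chromosome IV from 914317 to 914712 on the minus strand. None of the 6 genes has an intron, and their coding spans of 312 to 411 nt are short beside the median of 1029 nt over the 331 genes. The next protein-coding gene on the same strand starts at least 2541 nt after the stop codon in all 6, the nearest being CRZ1 after HHF2. A convergent protein-coding gene of the opposite strand ends nearer. It is KTR5 after HHF2 at 166 nt, ECM15 after HTB2 at 265 nt, UTP20 after HTA2 at 276 nt, SIW14 after HHT2 at 288 nt, IPP1 after HHT1 at 370 nt and CRF1 after HTB1 at 814 nt. All these distances start at the stop codon, as the mRNA 3' ends were not part of this comparison. An origin of replication annotated from 913790 to 914038 overlaps the 450 bases after the stop codon of HTB1.

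**Figure D1:**
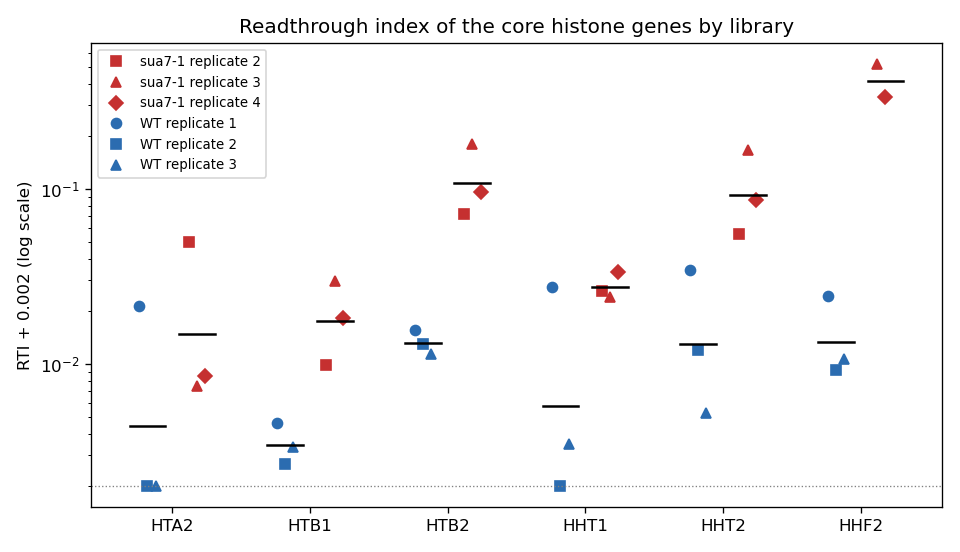
RTI of the 6 core histone genes in each library with a value, plotted as RTI + 0.002 on a log axis; points are libraries, black lines the mean on the log scale, and the dotted line an RTI of 0. HHF2 stood highest in sua7-1, at 0.333 and 0.515, while the sua7-1 and WT points of HTA2 and HHT1 overlapped.

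HHF2, encoding histone H4, had the highest RTI of the 6 genes in the mutant. Its RTI was 0.515 in sua7-1 replicate 3 and 0.333 in sua7-1 replicate 4, against 0.0224, 0.00722 and 0.00872 in the WT libraries. Both mutant libraries lay above every WT library. The mean was 0.424 ± 0.129 (SD, n = 2) in sua7-1, which was 33.2 times the WT mean of 0.0128 ± 0.00837 (SD, n = 3). Without WT replicate 1 the ratio was 53.2, and with sua7-1 replicate 4 as the only mutant library it was 26.1. In WT the gene lay above 62.5% to 64.6% of the genes of a library, and in sua7-1 it was above 92.3% and 93.8%.

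The H2B genes HTB1 and HTB2 both separated the strains, at levels far apart. The RTI of HTB2 was 0.0700, 0.179 and 0.0942 across the mutant libraries, against 0.0137, 0.0110 and 0.00937 across the WT libraries. Its WT values lay close together, with a mean of 0.0113 ± 0.00218 (SD, n = 3), and its mutant mean was 0.115 ± 0.0574 (SD, n = 3), a ratio of 10.1. That of HTB1 was 0.00789, 0.0278 and 0.0163 across the mutant libraries, against 0.00257, 0.000662 and 0.00134 across the WT libraries. Every mutant library was above every WT library here too. The mutant mean of 0.0173 ± 0.010 (SD, n = 3) was 11.4 times the WT mean of 0.00152 ± 0.000967 (SD, n = 3). This ratio was 17.3 without WT replicate 1 and 7.94 without sua7-1 replicate 3. HTB1 stayed low among the genes of both strains, above 18.4% to 20.9% of genes in the mutant libraries and above 13.5% to 23.2% in WT. HTB2 was above 62.3% to 69.5% of genes in the mutant libraries and above 48.3% to 71.0% in WT.

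The H3 genes differed from each other in whether the strains overlapped. For HHT2 the mutant libraries gave 0.0532, 0.164 and 0.0846 and the WT libraries 0.0325, 0.0101 and 0.00323. All mutant libraries lay above all WT libraries, although the gap between the lowest mutant and the highest WT value was small. The means were 0.101 ± 0.0573 and 0.0153 ± 0.0153 (SD, n = 3 each), a ratio of 6.59. The WT mean was set largely by replicate 1, and without that library it was 0.00665 and the ratio 15.2. Leaving out sua7-1 replicate 3 instead gave a ratio of 4.51. For HHT1 the mutant libraries gave 0.0243, 0.0221 and 0.0316. In WT the gene had 0.0256 in replicate 1 and 0.00149 in replicate 3, and was listed at 0 in replicate 2. WT replicate 1 lay above sua7-1 replicates 2 and 3, so the strains overlapped. The mutant values lay within a narrow range, around 0.0260 ± 0.00497 (mean ± SD, n = 3), while the WT mean was 0.00903 ± 0.0144 (SD, n = 3).

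HTA2, the H2A gene, varied widely among the libraries of each strain. In sua7-1 replicate 2 its RTI was 0.0481, but the other mutant libraries gave only 0.00546 and 0.00658. In WT it had 0.0195 in replicate 1 and was listed at 0 in replicates 2 and 3. WT replicate 1 lay above 2 of the 3 mutant libraries. The mean was 0.0200 ± 0.0243 (SD, n = 3) in sua7-1 and 0.00649 ± 0.0112 (SD, n = 3) in WT, so that each SD was larger than its mean. Without read numbers, a spread from counting few reads cannot be told apart from a difference between libraries. HTA2 lay above only 4.62% of genes in sua7-1 replicate 3, whose median RTI over all genes was the highest of the mutant libraries, against 54.8% in replicate 2.

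Tested gene by gene, the RTI of 5 of the 6 core histone genes rose in sua7-1 and that of HTA2 passed the test in neither direction. The test was limma on log2(RTI + 0.002) over all 337 genes, with a call where the p adjusted by Benjamini-Hochberg was under 0.05 and RTI + 0.002 differed by more than 1 on the log2 scale. Over all genes, 75.1% were called higher and 0.89% lower, so a count of 5 of 6 (83.3%) is near the background. The pseudocount of 0.002 makes the log2 fold change smaller than that of the RTI itself for low genes such as HTB1. HHF2 had a log2 fold change of 4.96 (95% interval 3.56 to 6.35, adjusted p = 0.0002, limma), the fourth largest of all 337 genes. HTB2 had 3.03 (1.89 to 4.17, adjusted p = 0.00053, limma) and HHT2 had 2.84 (1.28 to 4.39, adjusted p = 0.0039, limma). HTB1 had 2.35 (1.14 to 3.56, adjusted p = 0.0026, limma) and HHT1 had 2.26 (0.45 to 4.07, adjusted p = 0.026, limma). For HTA2 the value was 1.74 with an interval of -0.38 to 3.86 (adjusted p = 0.12, limma), which holds both no change and the value of every other member but HHF2. The median over the 6 genes was 2.59, against 2.44 over all genes.

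The calls of HHT1 and HTA2 depended on single libraries. The call of HHT1 was lost without sua7-1 replicate 2 (adjusted p = 0.051, limma), sua7-1 replicate 3 (0.065), WT replicate 2 (0.097) or WT replicate 3 (0.096). Without WT replicate 1, its log2 fold change was 3.39. Without that library, HTA2 was called higher, at a log2 fold change of 2.88 (adjusted p = 0.00014, limma). Without sua7-1 replicate 2, the log2 fold change of HTA2 was 0.86 (adjusted p = 0.42, limma). Its mean RTI was then 0.00602 in sua7-1, below the 0.00649 in WT. With its zeros taken as missing, HTA2 rested on 1 WT library and its log2 fold change was -0.54. The calls of HTB1, HTB2 and HHT2 held with each of the 6 libraries that have their values left out in turn, with log2 fold changes of 1.97 to 2.76, 2.65 to 3.32 and 2.18 to 3.54. HHF2 was still called without any of its 5 libraries (4.64 to 5.39), but leaving out a sua7-1 library left it with 1, which was assumed to vary as the WT libraries did.

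**Figure D2:**
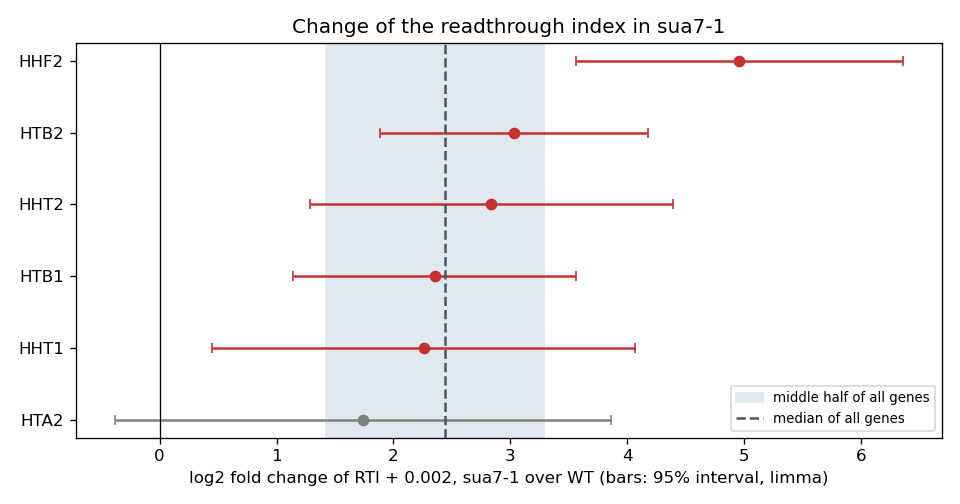
Log2 fold change of RTI + 0.002, sua7-1 over WT, for each core histone gene with its 95% interval from limma; red genes were called higher, the grey gene was not, the dashed line is the median of all 337 genes (2.44) and the shaded band runs from their lower to their upper quartile (1.43 to 3.29). Among the 6 intervals, that of HHF2 lies wholly above the band, while those of the other 5 genes overlap it.

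Gene by gene without sharing spread between genes, 4 of the 6 genes (66.7%) had every sua7-1 library above every WT library, against 78.3% of all 337 genes. These were HHF2, HTB1, HTB2 and HHT2. Exact permutation of the strain labels gave p = 0.1 (two-sided) for each of the 4, which is the lowest that 3 against 3 libraries, or 2 against 3 for HHF2, can give. It gave p = 0.3 (exact, two-sided) for HHT1 and for HTA2. For a single gene this exact test cannot pass the threshold of 0.05.

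Most genes of the table rose, so each core histone gene was also set against the middle gene of the same library. On the log2(RTI + 0.002) scale HHF2 lay above the library median by 0.59, 0.75 and 0.70 in WT replicates 1, 2 and 3, and by 2.57 and 2.26 in sua7-1 replicates 3 and 4. It moved up against the other genes by 1.73 (p = 0.1 by exact permutation, two-sided and the lowest possible, and 0.6 adjusted over 6 genes). HTB1 lay below the library median in every library, by a mean of -1.28 ± 0.47 in WT and -1.87 ± 0.30 in sua7-1 (SD, n = 3 each), a difference of -0.59 (exact permutation test, p = 0.2). The means of HTB2 and HHT2 were close in the strains on this scale, while their WT libraries were spread widely. HTB2 lay at 0.66 ± 0.65 in WT and 0.75 ± 0.30 in sua7-1, and HHT2 at 0.63 ± 0.84 and 0.53 ± 0.35 (SD, n = 3 each). The differences of 0.09 for HTB2 and -0.10 for HHT2 were smaller than the spread between libraries (exact permutation test, p = 1 and p = 0.8), and both changed sign with single libraries left out. HHT1 differed by -0.68 (exact permutation test, p = 0.5) and HTA2 by -1.20 (exact permutation test, p = 0.4). These shifts of the low genes depended on the pseudocount. With 0.0005 in place of 0.002 they were -0.15 for HTB1, -0.09 for HHT1 and -0.33 for HTA2, against 1.62 for HHF2. With 0.01 they were -0.92 for HTB1, -0.95 for HHT1 and -1.33 for HTA2 (exact permutation test, p = 0.1, 0.1 and 0.3), against 1.92 for HHF2. With 0.002, no p of the exact permutation test adjusted over the 6 genes was under 0.6.

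**Figure D3:**
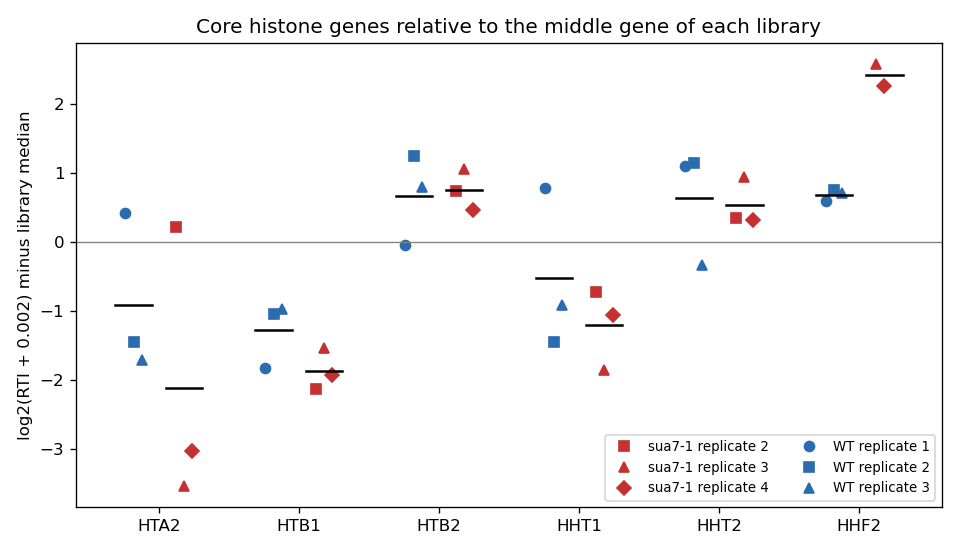
Log2(RTI + 0.002) of each core histone gene minus the median over all genes of the same library; points are libraries and black lines the strain means. HHF2 moved from 0.68 in WT to 2.41 in sua7-1, HTB2 had 0.66 in WT and 0.75 in sua7-1, and HTB1 was below 0 in every library.

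The RTI was also divided by the median of its library and multiplied by the geometric mean of the library medians, before 0.002 was added. HHF2 was then the only core histone gene called by limma, with a log2 fold change of 1.51 (standard error 0.33, adjusted p = 0.021, limma). On that scale 6.23% of all genes were called higher, 16.3% lower, and the median of all genes was -0.20. The other 5 members had log2 fold changes of -0.20 to 0.46 and adjusted p of 0.76 to 0.85 (limma). The values of HTB1 (0.13), HHT1 (0.24) and HTA2 (0.46) lay above the median of all genes here, the opposite direction to their differences in log2(RTI + 0.002) from the library median, so whether these 3 genes moved up or down against the other genes depends on the scaling. HHF2 lacks sua7-1 replicate 2, whose median was the lowest of the mutant libraries, which affects its place among the genes. With that library left out for all genes, HHF2 had the fifth largest log2 fold change of 337 genes, and the median of all genes was 2.74.

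Copies of a histone gene can be compared within a library, where a factor common to all its genes cancels in their ratio. HTB2 had a higher RTI than HTB1 in all 6 libraries, by 5.32-fold in WT replicate 1 to 16.6-fold in WT replicate 2. The mutant libraries gave ratios of 8.86, 6.45 and 5.79, all within the range of the WT libraries. On the log2(RTI + 0.002) scale HTB1 minus HTB2 was -1.94 ± 0.30 in WT and -2.62 ± 0.23 in sua7-1 (SD, n = 3 each), with all mutant libraries below all WT libraries (p = 0.1 by exact permutation, two-sided and the lowest possible, and 0.3 adjusted over 15 pairs of genes). This separation depended on the pseudocount, and with 0.0005 the strain difference fell from -0.68 to -0.10 (exact permutation test, p = 0.7). With 0.01 it was -1.27 (exact permutation test, p = 0.1). HHT2 was above HHT1 in all 6 libraries. The ratio was 2.19, 7.45 and 2.68 in the mutant libraries, 1.27 in WT replicate 1 and 2.16 in WT replicate 3, while HHT1 was listed at 0 in WT replicate 2. The strain difference of HHT1 minus HHT2 was -0.58 (exact permutation test, p = 0.5), which the pseudocount of 0.0005 turned to 0.08 and that of 0.01 to -1.02. In all 3 mutant libraries HTB2 and HHT2 lay above the library median and HTB1 and HHT1 below it.

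**Figure D4:**
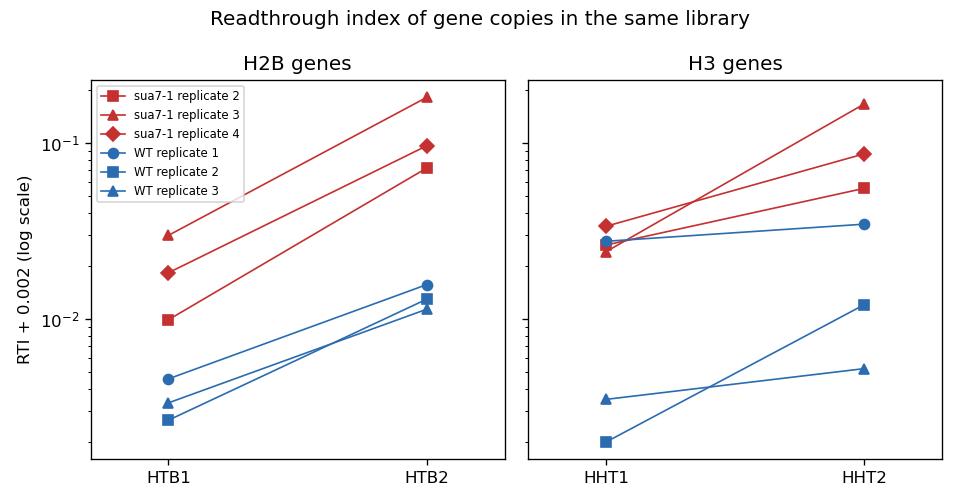
RTI + 0.002 on a log axis for the H2B copies HTB1 and HTB2 and the H3 copies HHT1 and HHT2; each line joins the values of both copies in the same library. Every line rises to the copy numbered 2, for H2B by 5.32-fold or more in RTI.

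The RTI of genes that share a divergent promoter also differed within libraries. No such ratio was taken for gene pairs outside the core histone genes. HTB2 had a higher RTI than HTA2 in 5 of 6 libraries, at ratios of 1.46, 32.8 and 14.3 in the mutant libraries. In WT replicate 1 the ratio was 0.702, and HTA2 was listed at 0 in WT replicates 2 and 3. The strain difference of HTA2 minus HTB2 was -1.29 on the log2 scale (exact permutation test, p = 0.5). It was -0.29 with a pseudocount of 0.0005 and -1.67 with 0.01. HHF2 exceeded HHT2 by 3.14-fold and 3.94-fold in sua7-1 replicates 3 and 4, while in WT replicates 1, 2 and 3 the ratio was 0.689, 0.718 and 2.70. The difference of HHF2 minus HHT2 was 1.74 higher in sua7-1 (exact permutation test, p = 0.2). Of the 15 pairs, HHF2 against HHT1, HTA2, HTB1 or HTB2 and HTB1 against HTB2 reached the smallest p the libraries allow, 0.1 by the exact permutation test and 0.3 adjusted. With a pseudocount of 0.0005 only HHF2 against HTB1 of these 5 pairs still did, and with 0.01 all 5 did.

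Few genes of related function were in the table. Of 28 listed chromatin proteins and histone chaperones only NHP6A was measured, an HMG-box protein that binds and bends DNA. The mutant libraries gave an RTI of 0.0910, 0.268 and 0.165 and the WT libraries 0.0159, 0.00532 and 0.00211, a log2 fold change of 4.31 (adjusted p = 0.00033, limma). Of 20 listed genes of DNA replication and nucleotide supply only RNR1 was measured, the large subunit of ribonucleotide reductase, whose transcription also peaks around the start of S phase. For RNR1 the mutant libraries gave 0.135, 0.269 and 0.187 and the WT libraries 0.0362, 0.0195 and 0.0311, a log2 fold change of 2.67 (adjusted p = 0.00089, limma). Both genes had every mutant library above every WT library. Among the 16 other genes with a coding span of 300 to 420 nt, 12 rose and none fell, near the 75.1% of all genes that rose, and their median change was 2.99 on the log2 scale, where that of the whole table was 2.44. IPP1, inorganic pyrophosphatase and the convergent neighbour of HHT1, was the only one of the nearest downstream neighbours in the table. Its RTI rose from 0.00116 ± 0.00128 in WT to 0.0227 ± 0.0131 in sua7-1 (SD, n = 3 each), a log2 fold change of 2.90 (adjusted p = 0.00093, limma).

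The genes most like each core histone gene were found by the root mean square difference of log2(RTI + 0.002) over the 6 libraries of the gene, or 5 for HHF2. For HTB1 these were RPS2, a ribosomal protein gene, at 0.21, PMP3, a membrane protein gene, at 0.27 and ACT1, the actin gene, at 0.28, against a median of 1.83 over 285 genes. For ACT1 the mutant libraries gave 0.0110, 0.0279 and 0.0187 and the WT libraries 0.00314, 0.00179 and 0.00142. HHF2 was most like SSH1, a translocon subunit gene, at 0.43, RPL11A, a ribosomal protein gene, at 0.47 and NOP56, a nucleolar protein gene, at 0.55. Those 3 genes have a value in sua7-1 replicate 2, where HHF2 has none, and it was 0.253, 0.0982 and 0.107. HTB2 was most like STE24, HOR7 and RIB4 (0.34 to 0.42), HHT2 like ARB1, LEU1 and INA1 (0.40 to 0.50) and HHT1 like SCW4, HSP150 and NPT1 (0.61 to 0.72). HTA2 had no close match. The nearest were HHT1 at 1.18, RPS14B at 1.22 and FAA4 at 1.29, against a median of 2.30. HHT1 was the only core histone gene named among the nearest 3 of another, that of HTA2.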

How the data were processed

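GRO-seq libraries of 3 sua7-1 and 4 WT samples were analysed from the deposited readthrough indices. The authors removed adapters (cutadapt), aligned the 3' end reads to the S288C genome, version R64-3-1 in the paper's methods and R64 in the submitters' notes, with an aligner not given in the sources, and counted reads from 50 to 500 nt on either side of the mRNA 3' end. The deposited RTI is the ratio of downstream to upstream reads. They kept genes with a same-strand neighbour at least 500 nt away, an mRNA of at least 500 nt and an expression of at least 1 read per nucleotide. Their mean ratio per strain, log2 ratio and p-value per gene were not used. A second part of the table (168 rows) repeats 3 of the core histone genes with equal values and was left out. No per-sample column lacked a sample.

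Systematic names of 331 of 337 genes (98.2%) matched the R64 annotation of the reference, from which positions, 30-base words and sequences were read. The tests planned on window counts were not run, since the table holds ratios. The model over all genes was limma 3.58.1 (R 4.3.3), fitted to log2(RTI + 0.002) by strain alone and tested on simulated data first, while single values were tested by exact permutation of libraries (Python 3.11.15, numpy 2.4.6). Missing values were left out of each fit. The members, gene lists and tests were chosen with earlier results of these data known. Named were every core histone gene, the 3 genes most like each, downstream neighbours in the table and the measured genes of the chromatin and replication lists. Alternatives were pseudocounts of 0.0005 and 0.01, a mean RTI of 0.005 or more, values in at least 6 libraries, zeros as missing, libraries divided by their median RTI, limma's trend and robust options, a block for replicate number, and leaving out 1 library at a time.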

Additional observations from a re-analysis of the deposited data

How the results depend on the processing

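The call of HHF2 held in the 14 alternatives that gave it a value, of which 2 left it with 1 sua7-1 library and 2 left out a library in which it has no value. The calls of HTB1, HTB2 and HHT2 held in 15 of 16 each and that of HHT1 in 9 of 16, and HTA2 stayed uncalled in the same direction in 13 of 16, the alternative without WT replicate 4 removing no value of these genes. With libraries divided by their median RTI, the log2 fold changes were 0.13 for HTB1, 0.24 for HHT1, -0.20 for HHT2 and -0.11 for HTB2, none called, and 21 genes were called higher and 55 lower against 253 and 3. That scaling asks only how genes moved against each other. HHT1 had 1.16 with a pseudocount of 0.01 and 1.49 with zeros as missing, not called in either, and HTA2 had -0.54 with zeros as missing. The count of genes called lower was 5 with a pseudocount of 0.01 and 6 with limma's trend option. The cause of these shifts was not tested. Replicate numbers are shared between strains, but the libraries' deviations had correlations of 0.13, -0.023 and -0.025 across genes for numbers 2, 3 and 4, and 1 of the 3 sua7-1 libraries correlated best with its own number, so the numbers were not taken to pair the libraries. With the replicate block, 240 genes were called higher and 3 lower, HTA2 was called at a log2 fold change of 3.27, and HHF2 had no residual degrees of freedom and no value.

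With 1 library left out at a time, the log2 fold change ranged from 1.49 to 3.39 for HHT1 and from 0.86 to 2.88 for HTA2. Against the library median it ranged from -0.59 to 0.15 for HHT2 and from -0.26 to 0.38 for HTB2, and with pseudocounts of 0.01 and 0.0005 it was 0.0688 for HHT2 and -0.0453 for HTB2. Differences between pairs also changed sign. With 1 library left out, they ranged from -0.0102 to 1.44 for HHT1 minus HTA2, -0.67 to 0.83 for HHT1 minus HTB1, -1.52 to 0.24 for HHT1 minus HTB2, -0.15 to 0.99 for HHT2 minus HTB1, -0.74 to 0.39 for HHT2 minus HTB2 and -1.91 to 0.33 for HTA2 minus HTB1. With a pseudocount of 0.0005, HHT1 minus HHT2 was 0.0829, HHT1 minus HTB1 0.0595 and HHT2 minus HTB1 -0.0234. The exact test of these relative values could not pass 0.05 at any setting. With 3 or fewer libraries a strain and read numbers not analysed here, an RTI listed at 0 cannot be told from a low one.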
